A study of Drosophila melanogaster with 4 samples.

Results

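CTCF-enriched regions on chromosome arm 2L were taken from the deposited list for both ChIP libraries together (the pooled list) as every row whose sequence name is 2L, with the separate heterochromatin sequence 2LHet left out. This gave 631 of the 3888 enriched regions of the pooled list, and no row on 2L was marked as depleted. CTCF was mapped by ChIP-seq, the sequencing of chromatin immunoprecipitated with an antibody, in whole wild-type Oregon-R embryos of Drosophila melanogaster aged 14 to 16 h, crosslinked in formaldehyde. The series holds 2 ChIP libraries for CTCF (replicates 1 and 2) and 2 libraries of input chromatin without immunoprecipitation, whose values were not analysed here. There is a single strain, genotype and stage, so the comparisons are between the lists and along the arm. Whole embryos mix all tissues of that age, so a region cannot be assigned to a cell type.

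CTCF is a zinc-finger protein that binds DNA at chromatin insulators, the elements that keep an enhancer from acting on the wrong promoter or mark the border between active and silent chromatin. In flies it works together with other insulator proteins such as CP190, and it is best known from the borders between regulatory domains of the bithorax complex, which lies on chromosome 3. Arm 2L is the left arm of chromosome 2 and carries no homeotic complex. Its position count starts at the telomere and ends near the centromere. Positions below are in FlyBase release 5. No gene annotation or sequence of that release was used here, so regions are given by position alone, without genes or motifs.

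Regions lay along nearly the whole arm, from 2L 15748 to 22737460 of a 23011544 bp sequence. Pooled regions numbered 27.4 per Mb and covered 1.28 Mb or 5.55% of the arm. Replicate 1 had 423 regions on 2L and covered 4.00% of the arm, and replicate 2 had 362 and covered 3.50%. Median widths were 1983 bp in the pooled list (quartiles 1466 and 2358), 2095 bp in replicate 1 and 2196 bp in replicate 2. Read totals are unknown, and with 1 list per library these totals carry no error.

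A region was counted as found in a replicate when it overlapped a region of that replicate's list by at least 1 bp. Of the 631 regions, 325 were found in both replicates, or 51.5% (95% Wilson interval 47.6 to 55.4), against 46.7% of all pooled regions. A further 90 were found in replicate 1 alone (14.3%, against 13.9% of all) and 33 in replicate 2 alone (5.23%, against 5.79%). The remaining 183 were found in neither list (29.0%, 25.6 to 32.7, against 33.7%). On the other 4 large arms, 2R, 3L, 3R and X, 46.7% were found in both, so 2L lay 4.82 percentage points higher (95% Newcombe interval 0.543 to 9.08). The share found in neither differed by -4.33 points on 2L, with an interval of -8.13 to -0.322. These intervals cover counting error only and treat regions as independent. The pooled list is for both libraries, though how it was made is not stated, so its matches to them are no independent evidence.

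The arm closest to 2L in this respect was 3L, with 50.5% in both replicates. The share was 48.1% on X, 45.9% on 3R and 42.3% on 2R, and the Wilson intervals of 2L and 3L (46.8 to 54.3) overlapped over most of their length.

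Seen from each library, 326 of the 423 replicate 1 regions on 2L overlapped a replicate 2 region, or 77.1% (Wilson 72.8 to 80.8), beside 76.0% for the whole replicate 1 list. In the other direction 327 of 362 replicate 2 regions were shared, or 90.3% (86.9 to 93.0), beside 88.3% for the whole list. The differences from the other large arms were 1.20 points for replicate 1 (interval -3.43 to 5.43) and 2.24 points for replicate 2 (-1.53 to 5.35), and both intervals include 0. The unshared regions had lower median scores than the shared ones, 0.429 against 1.11 in replicate 1 and 0.439 against 1.08 in replicate 2. The strongest of the 97 unshared in replicate 1 scored 0.726 and ranked 1147 of 2408, and the strongest of the 35 in replicate 2 scored 0.619 and ranked 1273 of 2080. Their positions were 2L 5935919 to 5937412 and 2L 9966420 to 9967807. All but 5 replicate 1 regions and 4 replicate 2 regions on 2L overlapped a pooled region, and those 9 were 1337 to 1687 bp wide with scores of 0.300 to 0.531.

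Scores are those the authors gave each region. The formula is not stated in the files, and scores were used to describe and rank regions within a list. Scores from different lists are also printed side by side, but whether their scales are equal is unknown. Most 2L regions were weak on this scale. The pooled scores ran from 0.079 to 5.20 with a median of 0.390, and 459 of 631 lay below 1. Another 69 lay from 1 to 2, 46 from 2 to 3, 39 from 3 to 4, 16 from 4 to 5 and 2 above 5. The regions over 1 included 168 found in both replicates and 4 found in neither, and none found in 1 replicate alone. Median pooled scores on 2R, 3L, 3R and X were 0.374, 0.405, 0.381 and 0.462, so the median of 2L lay within their range.

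The strongest regions were found in both libraries and were spread from one side of the arm to the other. The highest pooled score, 5.20, belonged to 2L 20119634 to 20122692, which scored 5.38 in replicate 1 (rank 8 of 2408) and 5.25 in replicate 2 (rank 4 of 2080). The second, 2L 14704398 to 14707750, scored 5.03 in the pooled list, 5.10 in replicate 1 and 4.95 in replicate 2. These were the only 2L regions with a pooled score above 5, and they lie more than 5 Mb apart. Next was 2L 7533034 to 7536512 with a score of 4.89, and 5.13 in replicate 1 (rank 15) and 4.61 in replicate 2 (rank 32). It was followed by 2L 7280148 to 7282876 with a score of 4.75, and 4.69 and 4.85 in replicates 1 and 2. Then came 2L 3470992 to 3473784 with a score of 4.74, and 4.72 and 4.85 in the replicates. Neither library was the higher in all of these, with replicate 1 above replicate 2 in the first 3 and below it in the next 2.

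The region at 2L 6796342 to 6799264 scored 4.58, with 4.65 in replicate 1 and 4.50 in replicate 2. At 2L 5364620 to 5367724 the pooled score was 4.56, with 4.54 and 4.74. For 2L 18838314 to 18841092 it was 4.54, with 4.67 and 4.45. In these, too, neither library was always the higher. At 2L 3783816 to 3788316 the score was 4.49, with 4.67 and 4.46, and this was the widest of the 10 at 4501 bp. The last of the 10, 2L 9611448 to 9614382, scored 4.28, with 4.31 in replicate 1 and 4.40 in replicate 2. On the telomeric side, before 10 Mb, lay 7 of the 10. Of these 10 regions, 9 were also among the 10 strongest of 2L in both replicate lists, and the lowest rank on the arm was 15 in replicate 1 and 11 in replicate 2. Since the pooled list is for both libraries, these ranks are a description.

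Width and score were linked in a way that changed along the range of widths. Over all 631 regions Spearman's rho between width and score was 0.70, and it was 0.86 in replicate 1 and 0.89 in replicate 2. Among the 279 pooled regions of 1001 to 1900 bp, wider regions scored lower, with a rho of -0.58. Among the 226 of 1901 to 2500 bp, wider regions scored higher, with a rho of 0.83. Among the 126 wider ones, width and score had a rho of 0.06. These are descriptions across regions of 1 list, which share their libraries, and the width limits were chosen after the values were seen. The same 3 values on the other 4 large arms were -0.59 (1466 regions), 0.82 (1065) and -0.05 (562), so the same shape was seen there.

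The share of regions found in both replicates rose within a narrow range of widths. None of the 109 regions of 1001 to 1300 bp was found in both, which is below the 1301 bp of the narrowest replicate region, and 99 of them were found in neither. Between 1301 and 1600 bp it was 1 of 74, which overlapped its replicate 2 partner by 9 bp, and between 1601 and 1900 bp it was 14 of 96 (14.6%). It then reached 93 of 126 (73.8%) from 1901 to 2200 bp, and 95 of 100 from 2201 to 2500 bp. Of the 126 regions above 2500 bp, 79 of 82 up to 3000 bp and 43 of 44 above it were found in both. Median scores over these 7 classes were 0.354, 0.275, 0.260, 0.390, 1.38, 2.84 and 2.65, so the lowest scores were not in the narrowest class. On 2R, 3L, 3R and X together, the share found in both was 0.258% from 1301 to 1600 bp and 7.93% from 1601 to 1900 bp. It was 72.2% from 1901 to 2200 bp and 95.7% from 2201 to 2500 bp, so the rise was not particular to 2L.

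**Figure D1:**
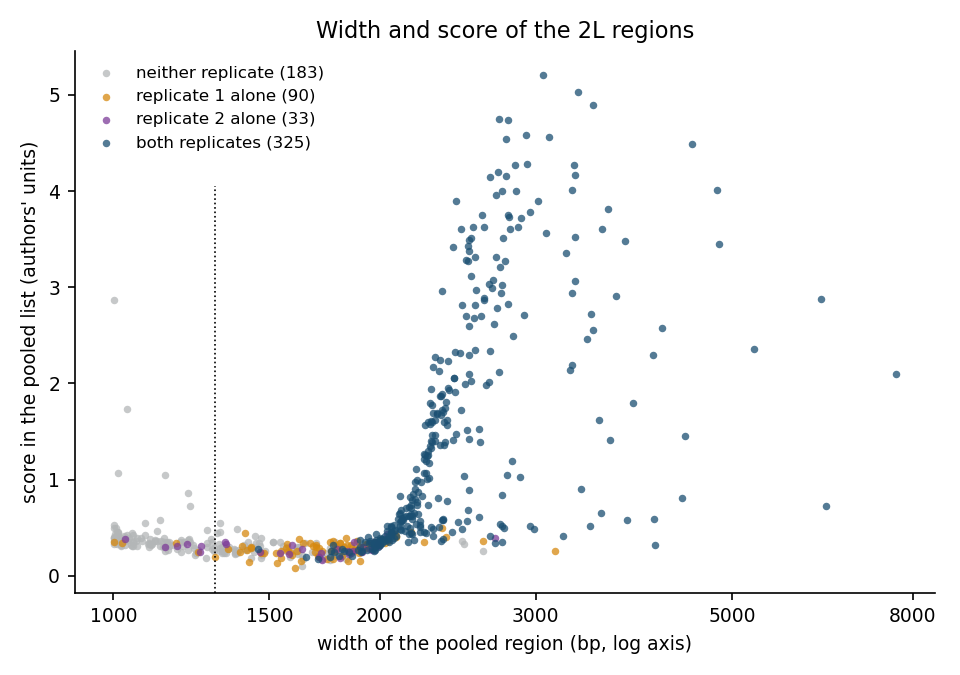
Each point is 1 of the 631 pooled regions on 2L, placed by its width in bp (log axis) and its score in the authors' units, and coloured by the replicate lists that it overlaps. The dotted line marks 1301 bp, the narrowest region of either replicate list. Scores fall with width up to about 1900 bp, climb steeply from there to 2500 bp, and scatter widely above.

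Sorting by score gave a similarly sharp passage. The 2L regions were divided by pooled score into 5 classes of 126 or 127. In each of the 2 lowest classes, 18 of 126 were found in both replicates (14.3%, Wilson 9.23 to 21.5). In the middle class, with scores of 0.351 to 0.490, it was 49 of 126 (38.9%, 30.8 to 47.6). It was 115 of 126 (91.3%, 85.0 to 95.1) in the next class, with scores of 0.491 to 1.62, and 125 of 127 (98.4%, 94.4 to 99.6) in the highest. Regions of replicate 1 alone numbered 33, 40, 16, 1 and 0 over these classes, and regions of replicate 2 alone 16, 12, 5, 0 and 0.

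Regions found in both replicates had a median pooled score of 1.06 (quartiles 0.477 and 2.36) and a median width of 2339 bp. Those of replicate 1 alone had medians of 0.299 and 1795 bp, and those of replicate 2 alone 0.283 and 1789 bp. Those in neither had a median score of 0.320, slightly above the regions of 1 replicate, but a median width of only 1275 bp. The 5 weakest regions that both libraries still listed scored 0.176 to 0.210 in the pooled list. The weakest, 2L 13458378 to 13460082, ranked 620 of 631 in the pooled list and scored 0.345 in replicate 1. Its replicate 2 partner, with 0.372, overlapped it by only 32 bp and was the same region that matched its neighbour at 2L 13456800 to 13458264. The first region of the arm, 2L 15748 to 17718, was also a weak one found in both, with scores of 0.263, 0.258 and 0.324 in the pooled list and replicates 1 and 2.

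Where both libraries listed a region, they placed it closely. The centres of the replicate regions were a median of 44.5 bp apart over the 325 regions (quartiles 17.0 and 114.5), a small fraction of their width, and 285 pairs (87.7%) lay within 200 bp. The greatest offset was 1753 bp, at 2L 18708088 to 18709544, where the 2 replicate regions did not overlap each other. The replicate 2 region there reached it by only 9 bp and also matched its neighbour at 2L 18706100 to 18708074. The offset was a median of 35 bp in the stronger members of these regions, above their median pooled score, and 74.5 bp in the weaker ones. Replicate 2 gave the wider region in 182 pairs, replicate 1 in 142, and 1 pair had equal widths. The pooled region was wider than both of its partners in 265 of 325 and narrower than both in 0. Matching was simple in nearly all cases, with exactly 1 partner in each list for 318 of the 325. On the whole arm, 1 region of replicate 1 and 3 of replicate 2 each overlapped more than 1 pooled region.

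Their order of strength was also close. Spearman's rho between replicate scores was 0.953 and Pearson's r was 0.986 over these 325 regions, given as descriptions because regions of 1 library share its depth and noise. The rho was 0.937 among the 102 regions with a pooled score over 2, 0.785 among the 66 from 1 to 2, and 0.619 among the 157 at 1 or below. The median difference in rank was 11 places of 325.

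The greatest differences in rank were all among weaker regions. At 2L 3631068 to 3633140 the score was 0.691 in replicate 1 (rank 198 of the 325) and 0.221 in replicate 2 (rank 325). At 2L 18151438 to 18153632 it was 0.713 (rank 197) and 0.355 (rank 313), and at 2L 14409264 to 14411440 it was 0.797 (rank 187) and 0.415 (rank 293). These 3 ranked higher in replicate 1. At 2L 9088890 to 9091052 it was 0.423 (rank 275) and 0.866 (rank 176), and at 2L 15503670 to 15505840 it was 0.435 (rank 273) and 0.994 (rank 174). These 2 ranked higher in replicate 2, so the differences ran in both directions.

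**Figure D2:**
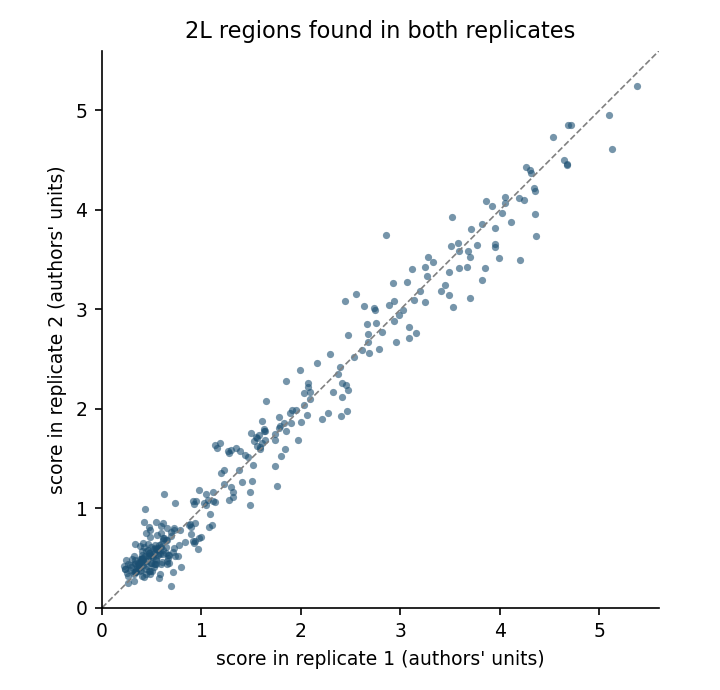
The score in replicate 1 (horizontal) is plotted against the score in replicate 2 (vertical), both in the authors' units, for the 325 regions of 2L found in both replicates; the dashed line marks equal scores. Points follow the line over the whole range, with relatively more scatter below a score of 1.

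Among the 183 regions found in neither replicate, 99 (54.1%) were narrower than any replicate region and 84 were not. The narrow ones had the higher scores, with a median of 0.364 against 0.269, and no region of the wider group scored above 0.550. They were not mostly flanks of replicate regions. The median distance to the nearest replicate region was 14189 bp, edge to edge, and 13 lay within 1 kb.

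The strongest of them stood far above the rest. The region at 2L 4182422 to 4183422 scored 2.86 and ranked 66 of 631, at 1001 bp the minimum width of the list. The nearest replicate region was 11845 bp away in replicate 1 and 11724 bp away in replicate 2. It was the only 2L region with a score over 2 that was absent from a replicate list. The region at 2L 15653556 to 15654592 scored 1.74 at 1037 bp. The regions at 2L 21463948 to 21464958 and 2L 9395388 to 9396532 scored 1.07 and 1.05, at 1011 and 1145 bp. The next, 2L 11315076 to 11316290, scored 0.865 at 1215 bp and lay 1338 bp from a replicate 1 region. All 5 were narrower than 1301 bp.

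Regions found in a single replicate had low median pooled scores, 0.299 for replicate 1 alone and 0.283 for replicate 2 alone. The strongest was 2L 17471948 to 17474298, with a pooled score of 0.495 and a replicate 1 score of 0.604. It was followed by 2L 10374774 to 10376940 with 0.454 and 2L 5935930 to 5937338 with 0.441, both of replicate 1. Next were 2L 20770176 to 20772256 with 0.436, of replicate 1, and 2L 8887966 to 8890004 with 0.430, of replicate 2. The 5 ranked from 252 to 287 of 631, above the median pooled score of 2L, 0.390.

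The widest regions were all found in both replicates and were not the strongest. The region at 2L 17957358 to 17965010 was 7653 bp wide with a score of 2.10 (2.45 in replicate 1 and 2.24 in replicate 2). At 2L 2191596 to 2197980 it was 6385 bp wide with a score of 0.730 (0.831 and 0.664), and at 2L 12002454 to 12008748 it was 6295 bp wide with a score of 2.88 (2.85 and 3.74). The last of these ranked 383 in replicate 1 and 161 in replicate 2. The region at 2L 20290014 to 20295312 was 5299 bp wide with a score of 2.36 (2.44 and 3.09). At 2L 71182 to 76010, close to the telomere, the width was 4829 bp and the score 3.45 (3.82 and 3.30). Their ranks on the arm went from 42 to 195. In 3 of the 5 a replicate list held 2 regions in place of 1, replicate 1 for the widest and replicate 2 for those at 12002454 and 20290014, and the score given is that of the stronger. For 12002454 the 3.74 belongs to a replicate 2 region of 3265 bp.

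Regions were spread unevenly along the arm. In 23 consecutive parts of 1 Mb, counted from the telomere, the pooled list had a median of 27 regions, and the richest part had 48. That was part 21, with 27 regions in replicate 1 and 25 in replicate 2. Part 1 followed with 45 (34 and 24 in replicates 1 and 2), then part 7 with 43 (30 and 25). The poorest was part 23, next to the centromere, with 9 pooled regions (3 and 1), and parts 5, 14 and 16 had 18 each. All 3 lists thus placed many regions in parts 1, 7 and 21 and few in part 23. The order of the parts differed between lists. Part 8, with 34 pooled regions, had 28 in replicate 1, more than part 21, and 24 in replicate 2, as many as part 1. In part 21, 17 of the 48 pooled regions were found in neither replicate.

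**Figure D3:**
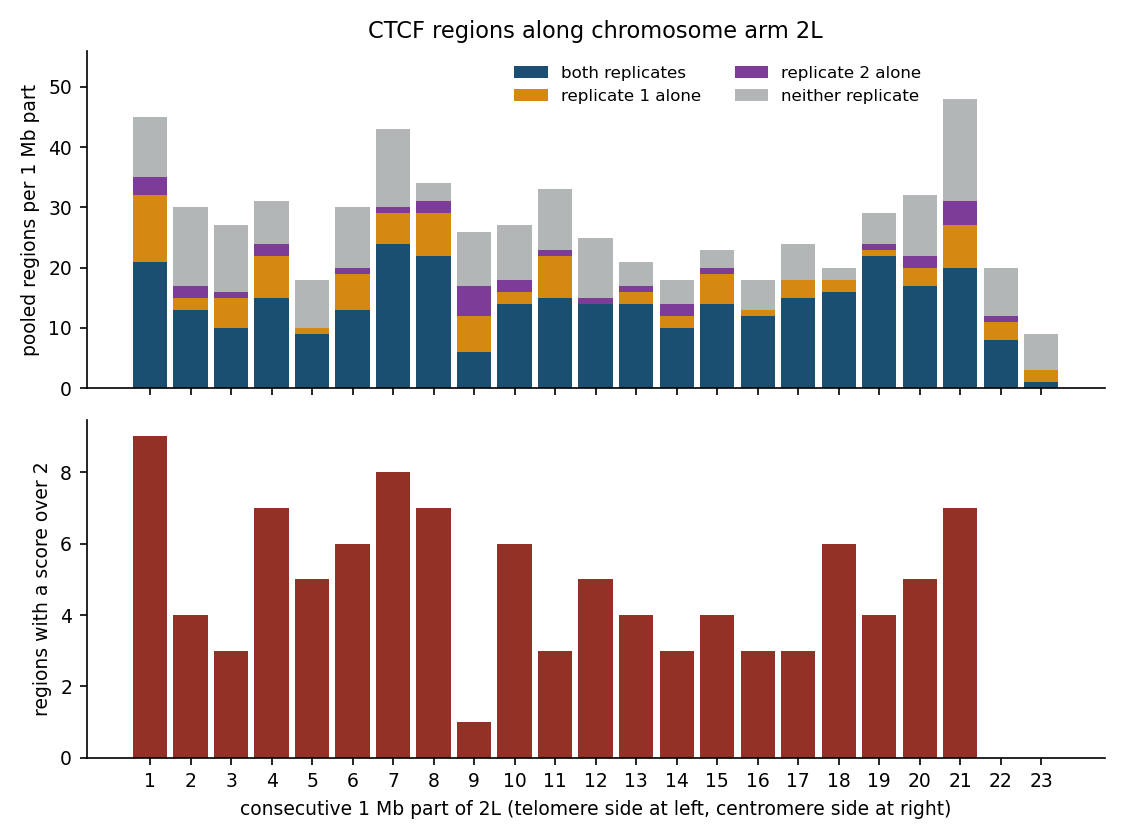
Pooled regions in each of the 23 consecutive 1 Mb parts of 2L, from the telomere side (left) to the centromere side (right). The upper bars are coloured by the replicate lists that the regions overlap, and the lower bars count regions with a score over 2. Part 21 is the richest with 48 regions, part 23 the poorest with 9, and parts 22 and 23 hold no region with a score over 2.

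Strong regions were present in 21 of these 23 parts. In all, 103 regions (16.3% of 631) scored over 2, of which 102 were found in both replicates, and 103 replicate 1 and 101 replicate 2 regions of 2L also had a score over 2 in their own lists. Their median width was 2737 bp. The share over 2 was 12.8% on 2R, 20.8% on 3L, 15.1% on 3R and 14.4% on X, so 2L lay within that range. Neighbouring strong regions on 2L were a median of 137 kb apart, and the closest pair 6.92 kb. No strong region lay in the 2.09 Mb from 20924190 to the centromeric end of the sequence. The longest stretch between neighbouring strong regions ran from 2L 8486832 to 9463650, and part 9, in which it begins, had 26 pooled regions but only 1 with a score over 2 and 6 found in both replicates.

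In larger parts of 5 Mb, the densest parts did not have the highest median scores. They did hold the most regions with a score over 2. The telomeric parts were the densest, with 30.2 regions per Mb up to 5 Mb and 32.0 from 5 to 10 Mb. Density was 24.0 from 10 to 15 Mb, 24.6 from 15 to 20 Mb and 25.6 in the last 3.01 Mb. Replicate 1 gave 19.6, 21.0, 16.8, 18.8 and 13.9 per Mb in the same order, and replicate 2 gave 15.6, 18.0, 14.8, 17.0 and 11.6. The pooled list was therefore denser in the last part than in either part from 10 to 20 Mb, while both replicate lists had their lowest density there.

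The part from 15 to 20 Mb had the highest median score, 0.587, and the highest share found in both replicates, 82 of 123 or 66.7% (Wilson 57.9 to 74.4). The last part had the lowest of both, 0.351 and 29 of 77 or 37.7% (27.7 to 48.8). The shares were 45.0% in the first part, 49.4% in the second and 55.8% in the third. Regions with a score over 2 numbered 28, 28, 19, 21 and 7 from the first part to the last. They made up 18.5%, 17.5%, 15.8%, 17.1% and 9.09% of the regions of each part. These parts were not tested against each other. Over the whole arm, score and position had a Spearman's rho of 0.04, and the scores of adjacent regions one of 0.07 over 630 pairs, so on this measure the score of a region said little about that of the next.

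The end nearest the centromere was poor in regions. The last 2 Mb of 2L held 29 pooled regions, or 14.5 per Mb, against 28.7 per Mb on the rest of the arm. Of these, 9 were found in both replicates (31.0%, against 52.5% on the rest), and the highest score was 1.69. The same 2 Mb nearest the centromere had 8.0 regions per Mb on 2R and 16.5 on 3L, but 35.0 on 3R and 27.0 on X. The last region, 2L 22736184 to 22737460, scored 0.337 and was found in neither replicate, and the 274084 bp after it held none. Both replicate lists ended earlier, at 22163125 and 22163043. How much of this sequence could be mapped is unknown, and its part in these numbers was not tested.

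Neighbouring regions on 2L were a median of 22.5 kb apart, centre to centre, with quartiles of 8.96 and 47.5 kb over 630 distances. The coefficient of variation of these distances was 1.13, and on 2R, 3L, 3R and X it was 1.33, 1.17, 1.05 and 1.08. In replicate 1 the median was 33.5 kb and in replicate 2 it was 40.3 kb, since these lists hold fewer regions. Regions found in both replicates were a median of 46.0 kb apart.

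Some regions had a close neighbour. There were 81 distances (12.9%) under 5 kb, which joined 150 regions into 59 pairs and 10 groups of 3 or 4. Whether this is more than random placement would give was not tested. The 2 groups of 4 spanned 2L 7419014 to 7428106, with scores up to 2.50, and 2L 16274662 to 16289482, with scores up to 4.01, and each held 2 regions found in both replicates. Regions with a neighbour within 5 kb were found in both replicates in 70 of 150 cases (46.7%), and the others in 255 of 481 (53.0%). Their median scores were 0.371 and 0.400. By centre distance, the closest neighbours were 2L 7036930 to 7038328 and 7038334 to 7039680, at 1378 bp and with scores of 0.308 and 0.281. Replicate 1 listed a single region there, 7038178 to 7039932, which overlapped both of them and reached 151 bp into the first. Next came 2L 159930 to 161888 with a neighbour at 1587 bp, and 2L 7425006 to 7426120 with one at 1659 bp. None of these 6 regions scored above 0.371. Measured from edge to edge the order was different. The first pair was again the closest, at 5 bp, followed by 2L 18706100 to 18708074 with a neighbour 13 bp away, whereas the strong region at 2L 20413720 to 20416282, with a score of 3.32, had one 37 bp away.

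The longest distances lay in the middle of the arm. The widest was 309 kb, between 2L 15111752 to 15114560 (score 3.61) and 2L 15421462 to 15423814 (1.89). The next was 287 kb, between 2L 13002506 to 13005076 (2.97) and 2L 13289942 to 13291846 (0.251). The third was 241 kb, between 2L 12132498 to 12134648 (0.355) and 2L 12372432 to 12375892 (2.72). The regions on both sides of each were found in both replicates.

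**Figure D4:**
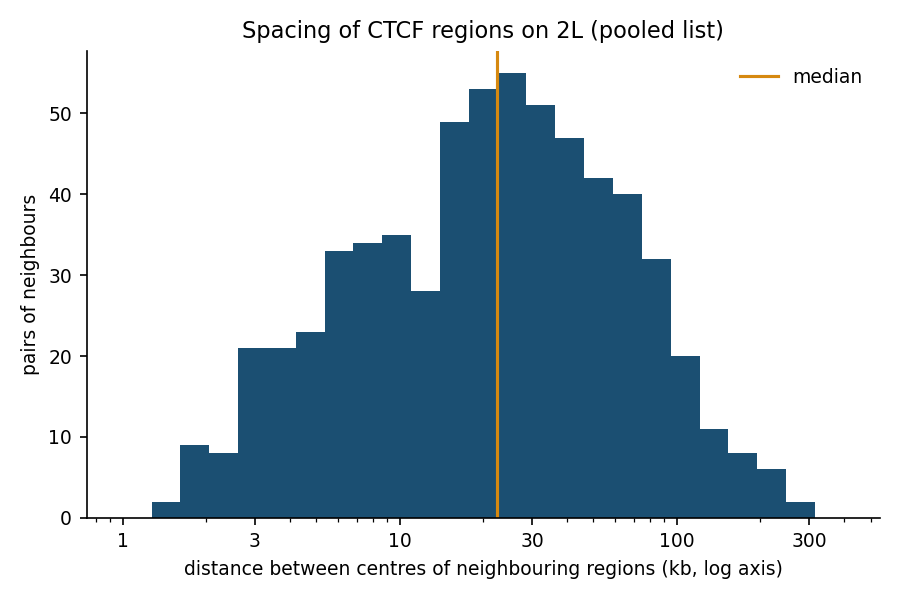
Distances between the centres of neighbouring pooled regions on 2L in kb (log axis), as numbers of neighbour pairs per class; the vertical line marks the median of 22.5 kb. Distances range from 1.378 kb to 309 kb.

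In fixed windows of 100 kb, the densest was 2L 20400001 to 20500000, with 8 pooled regions. It held 6 regions in replicate 1 and 7 in replicate 2, its scores ran from 0.259 to 3.32, and 6 of the 8 were found in both replicates. Several windows followed with 7 regions, the first of them 2L 5000001 to 5100000, with 2 found in both, and 2L 5300001 to 5400000, with 4 found in both. The median window held 2 regions, 49 of 231 held 5 or more, and 26 held none. Of the empty windows, 7 lay beyond 20 Mb.

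The comparison with the other arms asked whether 2L carried its share of regions for its length. In the pooled list its density was 0.851 times that of 2R, 3L, 3R and X together (27.4 against 32.2 per Mb, exact 95% interval 0.780 to 0.928). The exact binomial test gave p = 0.000561 (two-sided, Benjamini-Hochberg adjusted over the 3 lists). In replicate 1 the ratio was 0.918 (0.824 to 1.02, adjusted exact binomial p = 0.117) and in replicate 2 it was 0.909 (0.809 to 1.02, adjusted exact p = 0.117). Neither replicate alone passed 0.05. Against the other autosome arms without X, the pooled ratio was 0.899. Its exact binomial p was 0.0171 unadjusted and 0.0512 after adjustment, so it passed only unadjusted. Low density was not particular to 2L, since 3L also had 27.4 per Mb, against 33.6 on 2R, 30.9 on 3R and 37.8 on X. The test treats regions as independent and measures no spread between libraries. Counts in 100 kb windows of 2L were uneven, with a variance of 3.73 around a mean of 2.73. The intervals may therefore be too narrow and the p-values too small.

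Among the autosome arms, densities differed mainly in the regions that at least 1 replicate list lacked. Regions found in both replicates numbered 14.1 per Mb on 2L, 14.2 on 2R, 13.9 on 3L and 14.2 on 3R, against 18.2 on X. For these the ratio of 2L to the other 4 arms was 0.939 (exact interval 0.830 to 1.06, exact binomial p = 0.320), and to 2R, 3L and 3R it was 1.00 (0.882 to 1.14, exact p = 0.975). The remaining pooled regions numbered 13.3 per Mb on 2L, 19.4 on 2R, 13.6 on 3L, 16.7 on 3R and 19.6 on X. Their ratio was 0.774 to the other 4 arms (0.683 to 0.875, exact p = 2.85e-05) and 0.809 to the 3 autosome arms (0.712 to 0.918, exact p = 0.000811). This division was chosen after the densities were seen, and these p-values are not adjusted. They also treat regions as independent, so they may be too small in the same way. Whether the ratios of the 2 kinds of region differ was not tested.

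**Figure D5:**
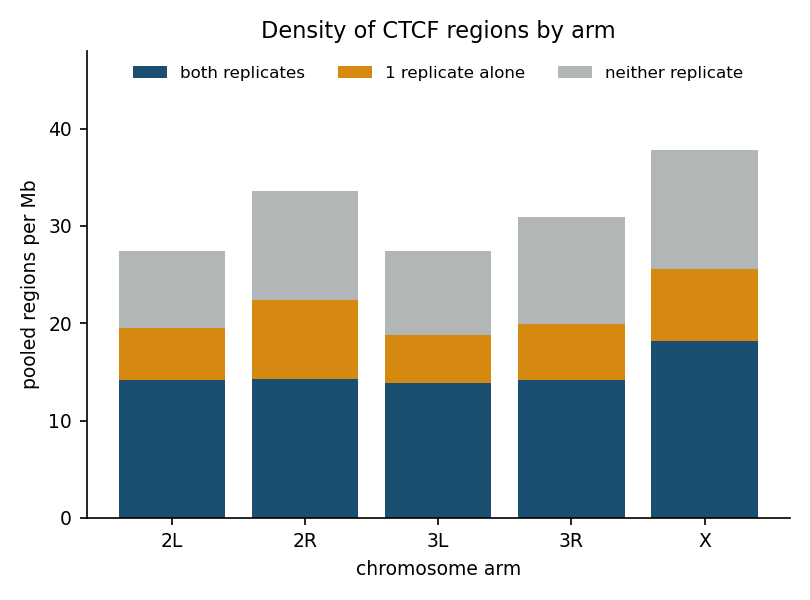
Pooled regions per Mb on the 5 large arms, divided into those found in both replicates, in 1 replicate alone and in neither. The lowest segment, found in both, is 13.9 to 14.2 per Mb on all 4 autosome arms and 18.2 on X, and the totals are lowest on 2L and 3L, both 27.4.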

How the data were processed

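CTCF ChIP-seq was analysed from 3 lists of enriched regions deposited by the authors, 1 per ChIP library and 1 for both. Each gives the authors' score per region, whose formula is not stated. Coordinates are in FlyBase release 5 per the file headers, counted from 1. The aligner was Bowtie 0.12.7 according to the submitters' processing notes. On the peak caller, its threshold, use of input or pooling, nothing is given in the sources used here. The labels call the ChIP libraries replicates but name no separate embryo collections, so their differences may be technical.

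The 2L rows were selected by name, and 1 depleted row of the pooled list, on another arm, was left out. Overlap needed 1 bp, and the highest-scoring partner was taken. All pooled starts on 2L were even numbers (0 odd, against 219 of 423 in replicate 1), so pooled edges lie on a grid of 2 bp. Shares have Wilson or Newcombe intervals at 95%. Density was tested against sequence length by an exact binomial test, with a threshold of 0.05. Depth is unknown.

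Regions named were the 10 strongest, the 5 strongest of neither or of 1 replicate, the 5 widest, the 5 weakest of both, the 5 with the greatest rank difference, the first and last, the 3 longest and shortest distances, and the 3 densest windows. Other regions were chosen after their values were seen. The arm, the comparisons and these rules were chosen with earlier results of these data known. Matching and density code was tested on simulated data. Computation used Python 3.11.15 with SciPy 1.17.1, pandas 2.3.3 and NumPy 2.4.6, and figures Matplotlib 3.10.9.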

Additional observations from a re-analysis of the deposited data

How the results depend on the processing

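In the pooled list the density of 2L was 0.851 times that of the other 4 large arms. This ratio stayed below 1, with an unadjusted exact binomial p under 0.05, for regions above the pooled median score. The same held without the 2 Mb nearest each centromere. For regions at least as wide as the narrowest replicate region it was 0.891 (unadjusted exact binomial p = 0.0166). Covered bases, which have no test, gave 0.868. The ratio did not pass 0.05 with either replicate list alone (0.909 to 0.918, adjusted) or with regions of both replicates (0.939, unadjusted). Against 2R, 3L and 3R only it was 0.899, with an exact binomial p of 0.0171 unadjusted and 0.0512 adjusted over the 3 lists. That comparison therefore passed only without the adjustment. With regions of both replicates against 2R, 3L and 3R only, the ratio was 1.00, just above 1. The cause was not tested. The comparisons with autosome arms only, and with regions not in both replicates, were added after the data were seen. All of these tests treat regions as independent, so their p-values may be too small.

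The 51.5% found in both replicates was 50.9% at a reciprocal overlap of 50%, and 46.1% with centres within 200 bp. It was 85.7% above the median 2L score and 62.3% among regions as wide as the replicate minimum. The median distance was 33531 to 40299 bp in a single replicate list and 46028 bp for regions of both, through fewer regions. The densest window had 5 regions at 50 kb, and 9 after a move of 50 kb, then at 2L 4950001 to 5050000 and 1 other place, so its position depends on where windows begin. The rank correlation of scores stayed between 0.953 and 0.958 under the other matching rules and above the median 2L score. It was lower within the weaker score classes, 0.785 from 1 to 2 and 0.619 at 1 or below.

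No paired analysis was possible because the input libraries that share replicate numbers with the ChIP libraries have no values here. Unknown depth, and 2 libraries, leave regions near the authors' threshold without an error of their own.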
